A study of Mus musculus with 17 samples.

Results

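The cathepsins are the peptidases of the lysosome, and 10 of their genes (Ctsa, Ctsb, Ctsc, Ctsd, Ctse, Ctsf, Ctsh, Ctsl, Ctss and Ctsz) were followed in hippocampal RNA of young and old mice. The genes were chosen by name, and each symbol was matched to 1 of the 38355 Ensembl gene identifiers in the count data. All libraries were made from polyA RNA of hand-dissected hippocampus of untreated wild type C57BL/6J mice. Sex is not given in the labels. Single-end libraries came from mice of 3 months (3M, n = 5) and 24 months (24M, 6 libraries), and paired-end libraries from mice of 3 months (n = 3) and 29 months (29M, n = 3). Each aged group was set against 3M libraries of the same type. Age and library type change together between both comparisons, so a difference between the 24M and 29M effects cannot be told apart from one between library types.

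Most cathepsins are cysteine peptidases of the papain type, while Ctsd and Ctse encode aspartic peptidases and Ctsa a serine carboxypeptidase. They are made as inactive precursors, sorted to endosomes and lysosomes largely by the mannose 6-phosphate receptors, and cleaved to the active form in the acidic compartment. In the brain, Ctsd, Ctsb and Ctsl take part in protein turnover in neurons and glia, and inherited loss of Ctsd or of Ctsf leads to storage of undigested material in neurons. Ctss is made mainly by microglia and other myeloid cells, where it trims the invariant chain from MHC class II molecules and keeps its activity at neutral pH.

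Counts on genes per library ranged from 19144461 to 28438296 in the 3M single-end group, from 9213474 to 19756411 at 24M, from 10977976 to 15054972 among paired-end libraries of 3M and from 10991389 to 13563541 at 29M. Replicates 1 and 4 of 24M differed by less than the counting noise (ratio of observed to expected variance 0.406, next lowest of 136 pairs 1.23), so their rounded mean entered as 1 sample and n = 5 at 24M. The hippocampal genes Prox1, Wfs1, Fibcd1 and Bok, looked up only to check the tissue label, had at least 54.3 CPM (counts scaled to the normalized library size) in every sample. The dissections were not uniform. Summed CPM of 7 choroid plexus genes ranged from 2042 in 3M single-end replicate 3 to 8460 in replicate 5 of that group, and 11 striatal genes summed to 723 CPM in 3M single-end replicate 4 against 232 to 301 in the other 4 samples of that group. Blood genes summed to 544 CPM in 24M replicate 2 against 76.3 to 159 in the other samples of 24M. The part of these differences in the results was not tested.

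Levels were first compared between the members within each group. Because longer transcripts collect more reads, CPM was divided by the exonic length of each gene in kilobases (RPKM). Ctsd, the aspartic peptidase, had the highest level in all 4 groups, with 217 ± 25.05 RPKM in the 3M single-end group (SD, n = 5). It was followed by the cysteine peptidase Ctsb at 111 ± 4.52 RPKM and by Ctss at 43.0 ± 5.09 RPKM in that group. The ranges of these 3 genes over samples did not overlap in any of the 4 groups. Ctsz (28.6 ± 3.83 RPKM), Ctsa (22.9 ± 1.18 RPKM), Ctsl (14.5 ± 1.46 RPKM) and Ctsf (11.04 ± 0.54 RPKM) came next in the 3M single-end group, and the ranges of Ctsz and Ctsa overlapped there. Ctsc (3.03 ± 0.54 RPKM) and Ctsh (2.47 ± 0.19 RPKM) were lower, also with overlapping ranges. Ctse was nearly absent, with 0.01 RPKM. Taking the longest coding transcript in place of all exons left the first 3 ranks as they were and moved Ctsf next to Ctsa and Ctsz and Ctsh above Ctsc, so the order below Ctss depends on the length used.

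**Figure D1:**
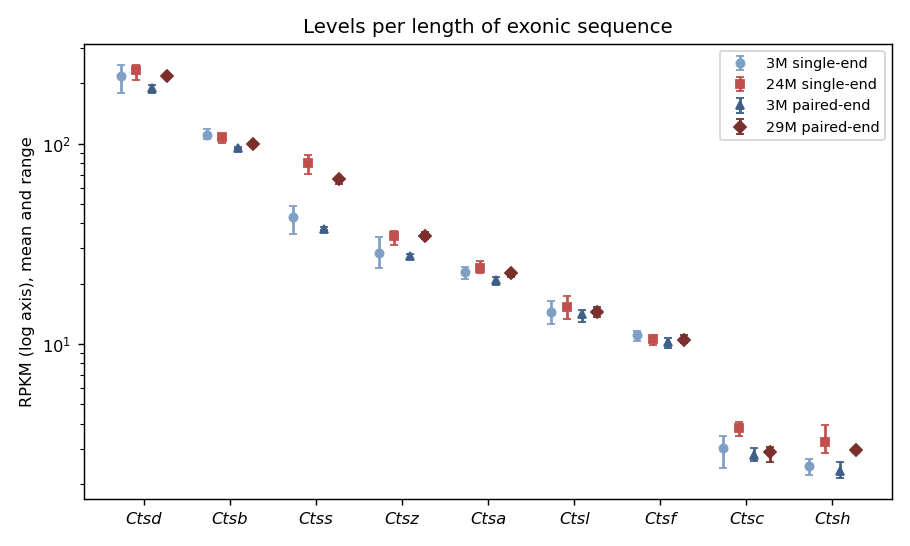
Level of the 9 expressed cathepsin genes per kilobase of exonic sequence (RPKM, log axis) in the 4 groups, as mean (symbol) and lowest to highest sample (bar). Ctsd, Ctsb and Ctss lead in every group, and the aged groups of Ctss lie above both 3M groups, at 80.4 and 66.4 RPKM against 43.0 and 37.7.

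Ctss held a larger share of cathepsin RNA in aged samples. Of the RPKM summed over the 10 genes, Ctss held 9.50% ± 1.001 at 3M and 15.6% ± 1.64 at 24M (SD, n = 5 each), and 9.40% ± 0.24 at 3M and 14.1% ± 0.76 at 29M (SD, n = 3 each). The sample ranges of this share did not overlap between ages, with 8.07% to 10.6% against 13.5% to 17.1% in single-end libraries and 9.13% to 9.58% against 13.2% to 14.6% in paired-end libraries. By the longest coding transcript the shares of Ctss were 8.02% and 13.4% in the 3M and 24M groups, and 7.93% and 12.02% in the 3M and 29M groups. The share of Ctsb was 24.5% ± 1.64 at 3M and 21.0% ± 0.47 at 24M, and 23.7% ± 0.68 at 3M and 21.1% ± 0.37 at 29M. Since shares sum to a fixed total, a lower share of Ctsb does not mean less Ctsb RNA.

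Differences with age were then tested gene by gene, asking which cathepsins change in the aging hippocampus. Genes were called when edgeR's quasi-likelihood test, after Benjamini-Hochberg adjustment over all genes tested, gave a p no higher than 0.05 and the log2 fold change was 0.5 or more in size. Ctse did not pass the filter on low counts at either age, which left 9 members. Ctss was called higher at 24M and again at 29M, and none of the other 8 members tested was called at either age. Among all genes tested, 1.34% were called higher at 24M (210 of 15683) and 1.34% at 29M (202 of 15097), and 1.98% and 1.45% were called in either direction. With the adjusted p alone, Ctss and Ctsh passed at 24M and Ctss, Ctsz and Ctsd at 29M, all of them higher, against backgrounds of 3.21% and 2.32% of genes. The log2 fold change was above 0 in 7 of 9 members at 24M and in 9 of 9 at 29M. The median over the 9 members was 0.11 at 24M and 0.12 at 29M, with medians over all genes of -0.0032 and -0.0021, and without Ctss it was 0.09 at both ages. The median of the 9 was 0.05 at 24M without 3M single-end replicate 3 and 0.07 at 29M without 3M paired-end replicate 1. Because whole tissue was measured, more cells of a type and more RNA per cell cannot be told apart in any of these values.

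**Figure D2:**
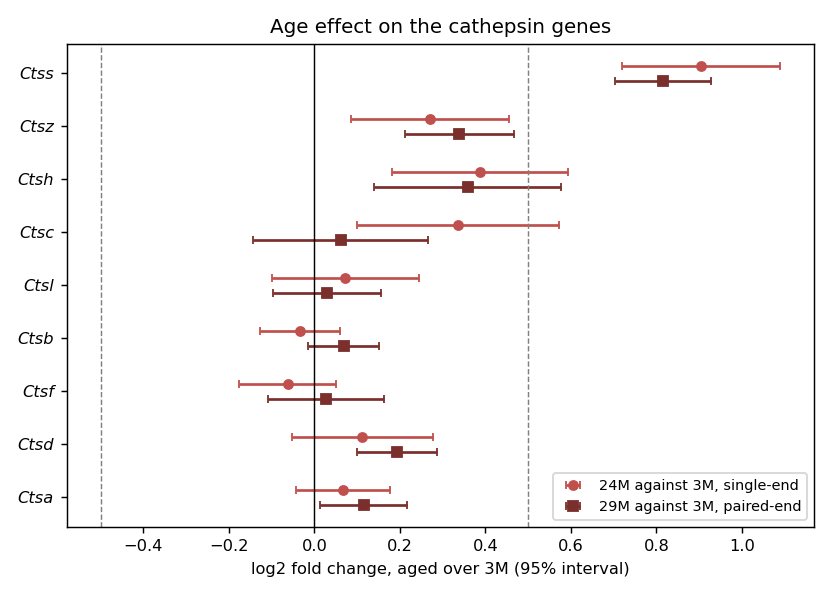
Log2 fold change of the 9 cathepsin genes tested, aged over 3M, with 95% intervals, at 24M (circles, n = 5 against 5) and 29M (squares, n = 3 against 3). Dashed lines mark the threshold of 0.5 in either direction. The intervals of Ctss lie wholly beyond it at both ages (0.72 to 1.09 and 0.70 to 0.93), and no other gene's point estimate reaches it.

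Ctss (ENSMUSG00000038642, chr3:95526786-95556403, plus strand, GRCm38), which encodes the cysteine endopeptidase cathepsin S, was the member called at both ages. In the single-end libraries of 3M replicates 1 to 5 it had 48.2, 66.3, 55.3, 60.8 and 61.3 CPM. At 24M it had 120.0 CPM in the mean of replicates 1 and 4 and 119, 109.7, 96.1 and 101 CPM in replicates 2, 3, 5 and 6. Every 24M sample therefore lay above every 3M sample, a separation that 3.15% of all genes tested showed. The mean was 58.4 ± 6.91 CPM at 3M and 109 ± 10.7 CPM at 24M (SD, n = 5 each). This gave a log2 fold change of 0.90 (SE 0.09, 95% interval 0.72 to 1.09), or 1.87-fold, with an adjusted p of 0.000109 in edgeR's quasi-likelihood test. The paired-end libraries showed 50.3, 52.4 and 50.8 CPM at 3M and 92.9, 92.1 and 85.5 CPM at 29M. Again every aged sample lay above every young one, which was so for 11.9% of all genes in this smaller comparison. These shares of 3.15% and 11.9% are also the background for each member below that passed the filter and whose groups did not overlap. The log2 fold change at 29M was 0.82 (SE 0.05, 95% interval 0.70 to 0.93), or 1.76-fold, with an adjusted p of 3.43e-06 in edgeR's quasi-likelihood test. Leaving out each library in turn gave 0.84 to 0.95 at 24M and 0.79 to 0.85 at 29M, and Ctss stayed called in all 11 and 6 of these fits.

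Ctss stood out less by the size of its change than by its precision and abundance. By p it ranked 10 of 15683 genes at 24M and 3 of 15097 at 29M, whereas by log2 fold change it ranked 123 and 208. Of the genes called higher at 24M, 78 had a larger log2 fold change than Ctss, but only 17 had more CPM on average over both ages. The median called gene had 5.36 CPM there, against 83.6 CPM for Ctss. At 29M the corresponding values were 110 genes with a larger change, 13 genes with more CPM, and 7.43 CPM for the median called gene against 70.7 CPM for Ctss.

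**Figure D3:**
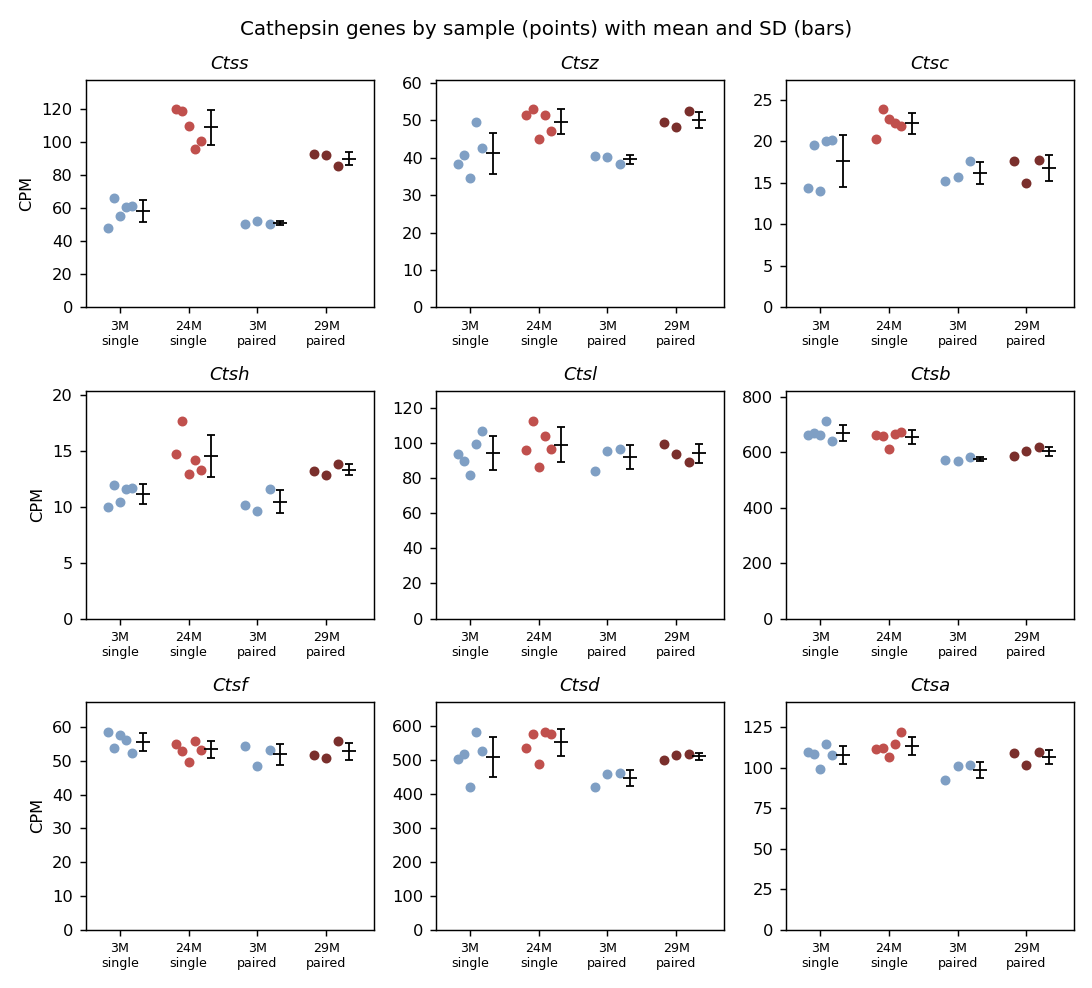
CPM of the 9 cathepsin genes tested in each sample (points) with group mean and SD (bars), every vertical axis starting at 0. Blue points are 3M and red points 24M or 29M, and 24M replicates 1 and 4 form 1 point. Ctss is at 48.2 to 66.3 CPM in 3M samples and at 85.5 to 120.0 CPM in aged samples, while Ctsb and Ctsf overlap or nearly overlap between ages.

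Ctsz (ENSMUSG00000016256, chr2:174427493-174439039, minus strand), the carboxypeptidase cathepsin Z, had the lowest p after Ctss in paired-end libraries. It had 40.6, 40.2 and 38.3 CPM at 3M and 49.7, 48.3 and 52.5 CPM at 29M. No sample overlapped, and the log2 fold change of 0.34 (SE 0.06) had an adjusted p of 0.00664 in edgeR's quasi-likelihood test but stayed under the threshold of 0.5. In single-end libraries Ctsz had 38.4, 40.9, 34.6, 49.5 and 42.7 CPM at 3M and 51.5, 53.0, 45.1, 51.5 and 47.1 CPM at 24M. Here 3M replicate 4, the sample with the high striatal genes, lay above 2 of the 24M samples, and the log2 fold change of 0.27 (SE 0.09) had an adjusted p of 0.0735 in the same test. Without that replicate the log2 fold change was 0.34, with an adjusted p of 0.0318 in the same test. In each of the 6 fits without 1 paired-end library the adjusted p at 29M was 0.0361 or less, and the fit of all 4 groups together gave 0.190.

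Ctsh (ENSMUSG00000032359, chr9:90054152-90076089, plus strand) encodes an aminopeptidase. In single-end libraries it had 10.003, 11.9, 10.4, 11.6 and 11.7 CPM at 3M and 14.7, 17.7, 12.9, 14.2 and 13.2 CPM at 24M. All 24M samples lay above all 3M samples, and the log2 fold change was 0.39 (SE 0.10), with an adjusted p of 0.0353 in edgeR's quasi-likelihood test. This p stayed at or under 0.05 in 6 of 11 fits with 1 library left out, and without 24M replicate 2, the sample with most blood RNA, it was 0.0927 at a log2 fold change of 0.31. In paired-end libraries the values were 10.1, 9.62 and 11.6 CPM at 3M and 13.2, 12.8 and 13.8 CPM at 29M. These did not overlap either, and the log2 fold change of 0.36 (SE 0.10) had an adjusted p of 0.0797 in the same test. With DESeq2's zero-centred prior it was 0.19 at 29M.

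Ctsc (ENSMUSG00000030560, chr7:88278085-88310888, plus strand), the dipeptidyl peptidase that activates granule serine proteases of immune cells, had different values in both comparisons. At 3M it had 14.4, 19.6, 13.95, 19.97 and 20.2 CPM in single-end libraries, and at 24M 20.3, 23.8, 22.7, 22.2 and 21.8 CPM. The lowest 24M sample was just above the highest 3M sample, and the log2 fold change of 0.34 (SE 0.11) had an adjusted p of 0.0812 in edgeR's quasi-likelihood test. Without 3M single-end replicate 5 the log2 fold change was 0.38, with an adjusted p of 0.0334 in the same test. No other of the 11 fits with 1 library left out passed. Over these fits the log2 fold change was 0.26 to 0.39 and the adjusted p reached 0.178. The fit of all 4 groups together gave an adjusted p of 0.0350 at 24M in edgeR's quasi-likelihood test, and DESeq2 gave 0.0439. Of 21 settings run at 24M, Ctsc passed the adjusted p in 4, so this result too depended on the processing. At 29M the values of 17.6, 14.9 and 17.7 CPM overlapped those of 15.2, 15.6 and 17.6 CPM at 3M. The log2 fold change was 0.06 there, with a 95% interval of -0.14 to 0.27. The difference between both effects was -0.28 (95% interval -0.65 to 0.08), with an adjusted p of 0.574 in edgeR's quasi-likelihood test of the difference.

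Ctsd (ENSMUSG00000007891, chr7:142375911-142388038, minus strand), the main aspartic peptidase of lysosomes, had 420.3, 459 and 463 CPM at 3M and 499, 516 and 519 CPM at 29M. The groups did not overlap, and the log2 fold change of 0.19 (SE 0.04, 1.14-fold) had an adjusted p of 0.0307 in edgeR's quasi-likelihood test. This held in 2 of 6 fits with 1 library left out, and in the fit of all 4 groups together the adjusted p was 0.505. Single-end libraries ranged from 420.2 to 584 CPM at 3M (median 519) and from 489.7 to 582 CPM at 24M (median 576). They overlapped, with a log2 fold change of 0.11 (SE 0.08, adjusted p 0.372 in the same test). The lowest of these samples, 3M replicate 3, was also lowest in its group for Ctsz, Ctsc, Ctsa and Ctsl, for the choroid plexus genes, and for 8 oligodendrocyte genes, which summed to 4347 CPM there against 5590 to 7579 CPM in the rest of the group. Without that sample the log2 fold change of Ctsd at 24M was 0.05, and the part of these other tissues in the level of Ctsd was not tested.

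The 95% intervals of 6 members ended short of 0.5 in either direction at both ages, namely Ctsz, Ctsd and the 4 genes that follow. Ctsb (ENSMUSG00000021939, chr14:63122462-63145923, plus strand), a cysteine peptidase, had log2 fold changes of -0.03 at 24M (interval -0.13 to 0.06) and 0.07 at 29M (interval -0.01 to 0.15). The paired-end samples of Ctsb did not overlap, at 569.5 to 582 CPM for 3M and 586 to 619.5 CPM for 29M, as for 11.9% of all genes there. Ctsl (ENSMUSG00000021477, chr13:64359337-64370890, minus strand), an endopeptidase, had log2 fold changes of 0.07 (interval -0.10 to 0.24) and 0.03 (interval -0.10 to 0.16). Ctsf (ENSMUSG00000083282, chr19:4855130-4860918, plus strand), a further papain-type cathepsin, had -0.06 (interval -0.18 to 0.05) and 0.03 (interval -0.11 to 0.16). Ctsa (ENSMUSG00000017760, chr2:164832873-164841032, plus strand), the carboxypeptidase that also shields neuraminidase and beta-galactosidase in lysosomes, had 0.07 (interval -0.04 to 0.18) and 0.12 (interval 0.01 to 0.22). Every adjusted p of these 4 genes was at least 0.230 in edgeR's quasi-likelihood test. Exons of genes on the opposite strand cover 17.4% of the exonic length of Ctsa (Neurl2 and Pltp), 12.8% of that of Ctsb (Fdft1) and 0.694% of that of Ctsz (Nelfcd). Exons of Gm49369 on the same strand cover 34.4% of Ctsd, and those of Gm47123 and Gm49230, of which the second lies on the strand of Ctsl, cover 26.8% of Ctsl. The study's methods name the overlap mode of HTSeq as changed from its defaults and mention no strand setting, and reads in these stretches are uncertain.

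Ctse (ENSMUSG00000004552, chr1:131638306-131675505, plus strand), an aspartic peptidase of endosomes in immune and epithelial cells, was counted so rarely that it did not pass the filter on low counts and is described by its counts. In single-end libraries it had 1, 1, 1, 0 and 1 counts at 3M and 5, 2, 4, 8, 3 and 3 counts in the 6 libraries at 24M. In paired-end libraries it had 1, 0 and 0 counts at 3M and 7, 3 and 3 counts at 29M. The libraries of the aged groups thus all held more counts than any 3M library of their type, although the single-end 3M libraries were on the whole more deeply sequenced. With 24M replicates 1 and 4 as 1 sample, 18 counts at 24M against 4 at 3M gave a ratio of 6.62 per counted read (exact 95% interval 2.18 to 26.9), and 13 counts at 29M against 1 at 3M gave a ratio of 13.7 (exact 95% interval 2.05 to 580.5). These intervals cover counting error only and not the spread between libraries. When all genes with at least 1 count were tested, Ctse had an adjusted p of 0.0234 at 24M, where it met the call, and of 0.0548 at 29M in edgeR's quasi-likelihood test. The shares of all genes so separated or called without the filter were not taken, so these results of Ctse have no background here.

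The effect of age was also compared between both designs in 1 fit of all 4 groups. No member differed between 29M and 24M after adjustment in edgeR's quasi-likelihood test or in DESeq2, and 0 of 9 had an unadjusted p under 0.05 in the former. None of the 16055 genes tested passed in edgeR (0%), while 10.4% had an unadjusted p under 0.05. For Ctss the effect at 29M minus that at 24M was -0.09 on the log2 scale (95% interval -0.36 to 0.17, adjusted p 0.821 in edgeR's quasi-likelihood test). The intervals of the other 8 members all included 0 as well, and the narrowest was that of Ctsb (-0.03 to 0.23). These intervals bound the difference and do not show equal effects.

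Because Ctss is a gene of microglia, its level was set beside those of 12 genes of homeostatic microglia, among them P2ry12, Tmem119 and Cx3cr1. Their summed level went from 362 to 415 CPM at 3M to 436 to 471 CPM at 24M, and from 360.2 to 364 CPM at 3M to 439 to 453 CPM at 29M, with no overlap between ages and none of the 12 at 0. Their median log2 fold change was 0.28 at 24M and 0.33 at 29M, and at each age 6 of 12 passed the adjusted p of edgeR's quasi-likelihood test. With the fold threshold, only P2ry12 (0.52, adjusted p 0.0342) was called at 24M and only Tmem119 (0.51, adjusted p 0.0183) at 29M in the same test. At 24M none was called when single-end replicate 1, 3 or 4 of 3M or replicate 2, 3 or 6 of 24M was left out, and 2 were called when replicate 2 or 5 of 3M was. At 29M none was called when paired-end replicate 3 of 3M or replicate 1 of 29M was left out.

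Ctss exceeded the mean log2 CPM of these 12 genes by 1.14, 1.36, 1.26, 1.498 and 1.28 in 3M single-end replicates 1 to 5. The excess was 2.05 in the mean of 24M replicates 1 and 4 and 1.97, 1.91, 1.78 and 1.90 in replicates 2, 3, 5 and 6. It was higher in 5 of 5 samples at 24M than in any at 3M. The difference was 0.61 on the log2 scale, with p = 0.00794 in a two-sided exact permutation test, the smallest that 5 against 5 samples allow. Benjamini-Hochberg adjustment over 18 such tests, those at 29M included, gave 0.0476. This value was reached only because Ctss, Ctsb and Ctsf were tied at that smallest p. A member alone at it would not have passed. At 29M the excess was 1.74, 1.76 and 1.61, against 1.14, 1.22 and 1.18 at 3M. The difference of 0.52 had p = 0.1 in the exact permutation test, which is the smallest p for 3 against 3 and cannot pass the threshold. Ctsb and Ctsf were lower relative to the same genes at 24M, by -0.32 and -0.35 (p = 0.00794 each in the exact permutation test, adjusted 0.0476). Their own log2 fold changes were only -0.03 and -0.06 (adjusted p 0.658 and 0.478 in edgeR's quasi-likelihood test), while the 12 genes had a median of 0.28. A lower relative value therefore does not mean less Ctsb or Ctsf RNA. For Ctsz, Ctsh and Ctsc the relative differences at 24M were -0.02, 0.09 and 0.06, with p of at least 0.310 in the exact permutation test.

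**Figure D4:**
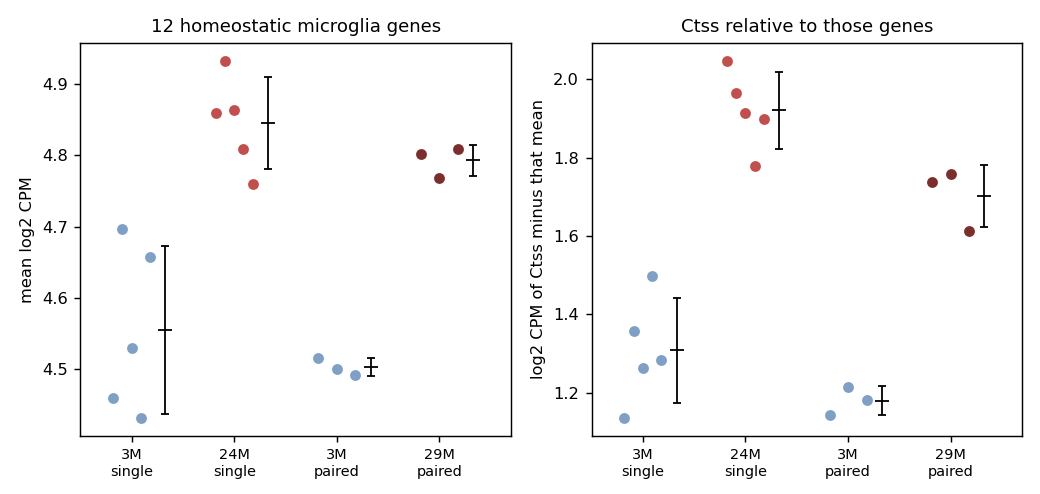
Left, mean log2 CPM of 12 homeostatic microglia genes per sample; right, log2 CPM of Ctss minus that mean. Points are samples and bars mean and SD, and the vertical axes do not start at 0. The excess of Ctss lies between 1.14 and 1.498 in 3M samples and between 1.61 and 2.05 in aged samples.

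Genes acting with the cathepsins were examined next, starting with other family members. Of 13 further cathepsin genes only Ctso and Ctsk passed the filter, and neither was called. Ctso, a papain-type cathepsin, had 41.2 ± 5.93 CPM at 3M and 48.6 ± 2.64 CPM at 24M (log2 fold change 0.24, adjusted p 0.108), and 35.3 ± 1.66 CPM at 3M and 40.8 ± 1.64 CPM at 29M (0.21, adjusted p 0.1004 in edgeR's quasi-likelihood test). Ctsk, best known from osteoclasts, stayed between 2.21 and 2.76 CPM on average.

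Some inhibitors of cathepsins were called higher. Among all genes tested 1.34% were called higher at each age, which is the background for this list and those below. Of 10 inhibitor genes tested at 24M, Cst7 and Serpina3n were called higher, and of 9 at 29M only Serpina3n. Cst7, the cystatin F of immune cells, which can block the activation of several cathepsins, went from 0.12 ± 0.10 CPM at 3M to 1.27 ± 0.28 CPM at 24M (SD, n = 5 each). It passed the filter on low counts at 24M through the aged samples, and did not pass it at 29M. Serpina3n, a secreted serpin of reactive astrocytes, was higher by 0.64 on the log2 scale at 24M and by 0.84 at 29M (adjusted p 0.000172 and 3.68e-05 in the same test). Cst3, the abundant cystatin C of brain, had 1062 ± 27.0 CPM at 3M and 1108 ± 71.8 CPM at 24M and was not called. The median of the list was 0.06 at 24M, or -0.04 with no filter on low counts, and 0.09 at 29M. At 24M only 1 inhibitor was called in DESeq2, with or without its prior, and with the stricter filter. At 29M, 2 inhibitors were called when paired-end replicate 1, 2 or 3 of 3M or replicate 2 of 29M was left out.

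The sorting machinery showed no called gene. Among 16 genes of sorting and maturation, including the receptors M6pr and Igf2r, the protease Lgmn that matures several cathepsins, and the lysosomal transcription factor Tfeb, none passed the adjusted p at either age in edgeR's quasi-likelihood test. At an unadjusted p under 0.05 there were a few, namely Igf2r (-0.16) and Sorl1 (-0.28) at 24M and Sorl1 (-0.09), Lgmn (0.13), Grn (0.15), Tfeb (0.29) and Mitf (0.24) at 29M. The list's median log2 fold change was 0.00 at 24M and 0.04 at 29M.

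No other lysosomal hydrolase met both thresholds. Of 34 other hydrolase genes none was called at 24M, and none of the 33 tested at 29M. With the adjusted p alone, the genes that passed included Ids (0.34), Asah1 (0.32) and Man2b1 (0.26) at 24M and Man2b1 (0.44) at 29M, where 1 gene was called without 3M paired-end replicate 3. Asah1 encodes the acid ceramidase and Man2b1 the lysosomal alpha-mannosidase. The hydrolase median was 0.03 at 24M and 0.11 at 29M, beside 0.11 and 0.12 for the cathepsins. Among 18 membrane proteins, Cd68, a lysosomal glycoprotein of phagocytes, was called at 29M with 7.92 ± 0.41 CPM at 3M and 13.3 ± 1.17 CPM at 29M (log2 fold change 0.75, adjusted p 0.00192 in edgeR's quasi-likelihood test). At 24M its log2 fold change was 0.498, just under the threshold, with an adjusted p of 0.0406, and it was called when replicate 2 or 5 of the 3M group or replicate 4 or 6 of 24M was left out. Laptm5, a lysosomal protein of blood-derived and microglial cells, passed the adjusted p at both ages with 0.37 and 0.41.

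**Figure D5:**
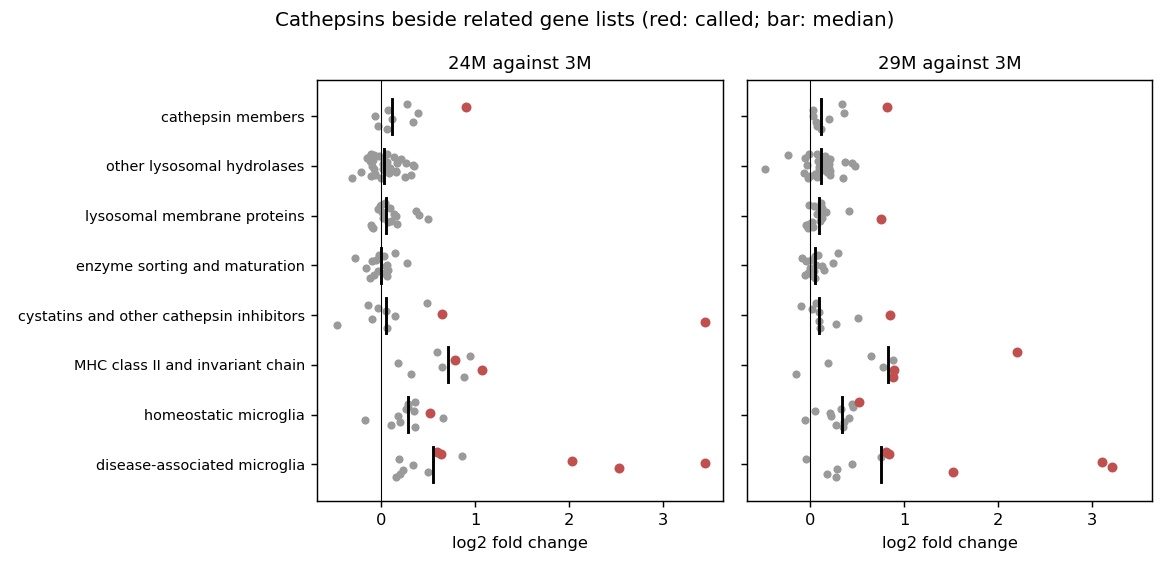
Log2 fold change of each tested gene at 24M (left) and 29M (right) in the cathepsin family and 7 related lists. Red points are called genes, grey points are not, and black bars are list medians. The cathepsins and other lysosomal lists centre near 0 (medians from 0.00 to 0.12), while MHC class II genes have medians of 0.72 and 0.82, and Cst7 appears in 2 lists.

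MHC class II genes, whose invariant chain Cd74 is cut by cathepsin S, were called in few cases. All 8 tested genes lay above 0 in log2 fold change at 24M and 7 of 8 did at 29M, with medians of 0.72 and 0.82, which were not tested as a list. Their summed levels overlapped in single-end libraries (25.6 to 50.3 CPM at 3M, 38.5 to 59.4 CPM at 24M) and not in paired-end libraries (28.3 to 34.8 CPM at 3M, 39.4 to 53.1 CPM at 29M). H2-Aa (1.07, adjusted p 0.0287) and H2-DMb1 (0.78, adjusted p 0.0220) were called at 24M, and Cd74 (0.88, adjusted p 0.00225), H2-Aa (0.88, adjusted p 0.0444) and H2-Ob at 29M in edgeR's quasi-likelihood test. H2-Ob, with 0.30 ± 0.12 CPM at 3M and 1.37 ± 0.19 CPM at 29M (SD, n = 3 each), passed the filter on low counts through the aged samples. Their levels were low, and Cd74 itself had 8.25 ± 5.27 CPM at 3M and 15.1 ± 3.68 CPM at 24M (SD, n = 5 each). The count of called genes rested on single libraries. At 24M it was 0 without 24M replicate 2, 1 without replicate 1, 3 or 4 of 3M and 5 without replicate 2 of 3M, and at 29M it was 6 without 29M replicate 2.

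Markers of disease-associated microglia were called in 5 of 12 genes tested at 24M (led by Clec7a, Cst7, Trem2 and Tyrobp) and in 5 of 11 at 29M (led by Clec7a, Trem2, Itgax and Tyrobp). Several of the called genes passed the filter on low counts through the aged samples, so the counts of called genes rest in part on the filter. They included Cst7, Clec7a and Itgax at 24M (0.12, 0.56 and 0.35 CPM at 3M). At 29M they included Clec7a and Itgax (0.34 and 0.30 CPM at 3M). The list's medians were 0.55 and 0.75, and Cst7 is also counted among the inhibitors. Clec7a, a phagocyte receptor, had 0.56 ± 0.17 CPM at 3M and 3.23 ± 1.09 CPM at 24M. Genes of perivascular macrophages, myeloid cells along brain vessels, had medians of 0.45 at 24M and 0.48 at 29M with no gene called at either age, and their summed levels overlapped between ages (23.9 to 32.7 CPM against 27.9 to 38.3 CPM, and 25.7 to 27.96 CPM against 24.2 to 40.7 CPM). Perivascular macrophage genes had 2 calls at 24M without 24M replicate 3.

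Few markers of other cells were called. Gfap of astrocytes was called higher at both ages (0.66 and 0.80), and no neuronal or oligodendrocyte marker was called. The median of the 11 astrocyte genes was only 0.08 at 24M and 0.06 at 29M, with 9 above 0 at each age. Cldn5 of endothelium was called lower at 24M (-0.60), and Hba-a1 (0.95) and Alas2 (0.85) of red blood cells higher at 29M. Of the 8 endothelial genes, 5 were above 0 at 24M (median 0.08) and 1 at 29M (median -0.13). Cldn5 was not called when replicate 1 of 3M or replicate 2 or 3 of 24M was left out, and 1 oligodendrocyte gene was called at 24M without replicate 4 or 5 of 3M or replicate 4 of 24M, and at 29M without replicate 2 of 3M. Among blood genes none was called at 29M without paired-end replicate 1 or 3 of 3M or replicate 2 or 3 of 29M, 1 without replicate 2 of 3M and 5 without replicate 1 of 29M, and at 24M 1 was called without replicate 5 of 3M or replicate 5 or 6 of 24M. A second astrocyte gene was called at 24M without replicate 4 of 3M or replicate 5 of 24M, and 2 striatal genes without replicate 5 of 3M. Ctss was still called at 24M without replicate 2, the 24M sample with most blood RNA, and without replicate 4 of 3M, with most striatal RNA.

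To see which genes vary as the cathepsins do, log2 CPM was centred within each library type and correlated over the 16 samples with 14520 genes. The samples share the age contrast, library depth and dissection, so these values are descriptions only. Ctss was most like Mpeg1 (r = 0.98), Clec7a (0.98) and Cd84 (0.96), all genes of macrophages and microglia. With group means removed as well, the correlations with these genes were 0.70, 0.81 and 0.61. Ctsd was most like Fxyd1, Npc2 and Lgmn (r = 0.94, 0.94 and 0.93), of which Npc2 and Lgmn act in lysosomes. Nearest to Ctsh were Ifi27, Parp3 and Trim30a (0.94, 0.94 and 0.93), and nearest to Ctsz were Fth1, Wnk4 and Trim21 (0.91 each). For Ctsc they were Cdc14b, Mgst1 and Cpne3 (0.96, 0.93 and 0.93), and for Ctsl Lgals1, Angptl2 and Acacb (0.92, 0.90 and 0.90). Ctsa was nearest to Rhog, Syne3 and Dok1 (0.91, 0.90 and 0.88), Ctsb to Epop, Pacsin3 and Igfbp6 (0.90, 0.88 and 0.88), and Ctsf to Flywch1, Shf and Ube2m (0.90, 0.89 and 0.88).

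Members also varied with one another inside groups. Over 36 pairs of members, with group means removed, the median r was 0.49, and 30 pairs were above 0. Pairs of other genes were not summarized in this way, so these values are not shown to be particular to the cathepsins. The highest value was that of Ctsa and Ctsd (0.80), followed by Ctsd and Ctsz (0.79), and the lowest that of Ctsf and Ctss (-0.54).

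Promoter sequence of the members was described as well, and a link between motifs and the patterns above was not tested. Windows from 250 bases before to 50 bases after the transcript start were taken from RefSeq (GRCm38.p6). In it 7 of the 10 members had a window, with 8 windows in all, and Ctsb, Ctse and Ctsh had none. Ctsa had windows at chr2:164832622-164832921 and chr2:164833523-164833822, and the former held none of the 5 motifs. The lysosomal E-box core CACGTG was present in 4 of the 8 windows (Ctsa, Ctsd, Ctsf and Ctsl), against 7.15% of 32851 windows of all genes. Its longer form TCACGTGA, which contains CACGTG, was present in 2 of the 8 (Ctsa and Ctsd), against 0.974%. The window of Ctss held neither. It held GAGGAA, a core for PU.1 and other ETS factors (28.3% of all windows), and GAAANNGAA, an IRF motif (8.56%). Ctsc held GAGGAA and the STAT motif TTCNNNGAA (8.3%), and Ctsz held none of the 5 motifs. Both strands were searched. A match describes letters only, and binding of a factor was not measured. The windows of Ctss (chr3:95526536-95526835, plus strand) and Ctsd (chr7:142387778-142388077, minus strand) are shown 5′ to 3′ with these motifs in capitals.
Ctss: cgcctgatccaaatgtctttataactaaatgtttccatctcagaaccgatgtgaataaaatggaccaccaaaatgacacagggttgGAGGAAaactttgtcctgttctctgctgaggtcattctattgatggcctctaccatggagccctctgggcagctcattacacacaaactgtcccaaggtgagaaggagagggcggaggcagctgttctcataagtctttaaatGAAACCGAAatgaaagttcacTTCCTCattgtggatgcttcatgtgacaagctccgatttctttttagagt
Ctsd: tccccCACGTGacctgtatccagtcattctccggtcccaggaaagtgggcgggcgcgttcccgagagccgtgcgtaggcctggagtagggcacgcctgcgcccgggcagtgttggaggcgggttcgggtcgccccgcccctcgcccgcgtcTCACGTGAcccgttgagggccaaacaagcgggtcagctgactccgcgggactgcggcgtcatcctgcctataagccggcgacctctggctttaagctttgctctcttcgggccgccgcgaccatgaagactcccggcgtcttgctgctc
In Ctss the capitals mark GAGGAA, then the IRF motif 21 bases before the transcript start, then GAGGAA on the other strand at the start. In Ctsd they mark CACGTG and, 99 bases before the start, TCACGTGA.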

How the data were processed

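Hippocampal RNA was measured in 17 libraries. Per the labels and the study's methods, the authors used STAR (2.3.0) for alignment and HTSeq for counting, and deposited raw read counts per gene without normalization. The submitters' processing notes name GRCm38.p2 as build. Lines naming no gene were left out. Names, positions and exonic lengths came from GENCODE M21 (GRCm38), which named 36602 of 38355 identifiers.

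Tests used edgeR 4.0.16 in R 4.3.3 (TMM, filterByExpr defaults, quasi-likelihood), each aged group against the 3M group of its library type, with Benjamini-Hochberg adjustment over all genes. For 24M replicates 1 and 4, their rounded mean stood as 1 sample. Each SE is the size of the log2 fold change over the square root of F. RPKM were computed from CPM. Log2 CPM used a prior count of 2. Exact permutation tests were run in SciPy 1.17.1. The steps were tested on simulated data. Intervals for single counts cover counting error only, and library depth limits genes under 1 CPM such as Ctse.

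The members and gene lists were chosen with earlier results of these data known. The genes named are all members, other cathepsins tested, up to 4 called genes per list and age by adjusted p, every gene of a list of which 4 or fewer were called, and the 3 genes most correlated with each member. The 4 genes of the tissue check and those given in the text at an adjusted p alone, an unadjusted p or no call were named after their values were seen. Alternatives were DESeq2 1.42.0 (also with a prior on fold changes), its size factors, no or a stricter filter, 1 fit of all groups, a replicate block, the 24M pair kept apart or left out, each library left out, no fold change threshold, a prior count of 0.5 and, chosen after seeing the data, another gene length. Protein sequences were not used here, and the results of some single genes of the lists are not reported here. The labels name separate samples, and nothing used here ties each to its own animal, so p-values measure the spread between these samples, which may be technical.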

Additional observations from a re-analysis of the deposited data

Results flagged for a closer look

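Ctsb in 24M replicate 3 stood apart from the other samples of its group. It had 612 CPM against 657 to 672 CPM in the other 4 samples, a gap of 0.749 of the whole range. The 18 groups of 5 samples were examined in this way, of which 0.9 would be marked by chance. Ctsb was not called at 24M with or without this library.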

How the results depend on the processing

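Ctss was called at both ages under every alternative run, with log2 fold changes of 0.81 to 0.95 over 21 settings at 24M and 0.69 to 0.85 over 14 at 29M. The number of members called at 24M was 2 with no filter on low counts (Ctse and Ctss) and 2 with no fold change threshold (Ctss and Ctsh). At 29M it was 3 with no fold change threshold (Ctss, Ctsz and Ctsd). It was 1 in every fit with 1 library left out. The member median ranged from 0.05 to 0.19 at 24M and from 0.07 to 0.15 at 29M. At 24M the adjusted p passed in 5 of 21 settings for Ctsz and in 4 of 21 for Ctsc. No member differed between 29M and 24M under any of 23 alternatives. Relative to homeostatic microglia genes, 3 members passed at 24M, and with 1 library left out 0 to 3 did. It was 3 without 24M replicate 1 or 4 and 0 wherever 4 samples were left in a group. With 4 samples the smallest possible p is larger, and more members tied at it would have been needed to pass. With the longest coding transcript as length, 6, 4, 4 and 2 genes changed rank in the 3M single-end, 24M, 3M paired-end and 29M groups. In edgeR with DESeq2's size factors no member changed its call. Of the counts of called genes in the related lists, 432 were within 1.5 times and 96 moved. Of the medians of these lists, 480 moved by less than the spread between replicates and 48 by more.

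Replicate numbers are shared between groups, but same-numbered samples did not deviate together (correlations of -0.14 to 0.10, with 1 of 4 and 1 of 3 pairs correlating best with its own number). With the replicate block, 1 member (Ctss) was called at each age, with medians of 0.15 at 24M and 0.11 at 29M, and Ctsh had an adjusted p of 0.123 at 24M in edgeR's quasi-likelihood test.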
